A study of Mus musculus with 57 samples.

Results

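The myeloid lineage transcription factors examined here are 9 genes: Cebpa, Cebpb, Cebpd, Cebpe, Spi1, Gfi1, Irf8, Klf4 and Myb. They were taken by name, with every probe set annotated to 1 of them alone. 8 of the 9 were measured, by 14 of the 34842 single-gene probe sets that cover 18165 genes; Cebpe had no probe set named for it and is not analysed here. The arrays were hybridised with RNA from mouse blood-forming tissue, and values are log2 RMA signals, so a difference of 1 is a doubling. Where a gene had several probe sets, the brightest on average stands for it, and others are named as such.

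The series holds 57 arrays in 14 groups. CA10 mice carry vav-CALM-AF10 and NHD13 mice carry vav-NUP98-HOXD13, leukemia fusion genes driven by the vav promoter, which is active in blood cells. Leukemic spleens came from mice with clinical signs (6 CA10 and 6 NHD13 arrays), and 5 CA10 spleens came from mice without them; wild-type spleen has 2 arrays. All other transgenic tissue was from mice without signs of leukemia: lineage-negative marrow (marrow depleted of mature blood cells; 3 CA10, 3 NHD13 and 3 wild-type arrays), whole marrow (3 arrays each of CA10, NHD13 and C57B6 wild type, and 6 of other wild type) and thymus (4 CA10, 3 NHD13 and 7 wild-type). The mice were untreated, and the labels give a strain for the C57B6 marrows only. No label says that each array was a separate mouse, so p-values measure the spread between these arrays.

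Myeloid fate is set by a small network of DNA-binding proteins. Spi1 encodes PU.1, the ETS factor needed for both macrophages and granulocytes, and Cebpa drives the step from common myeloid to granulocyte-monocyte progenitors, where it can restrain growth. Cebpb takes over in emergency granulopoiesis, Cebpd is induced by cytokines and rises as granulocytes mature, and Cebpe acts in late granulocytes. Gfi1 is a repressor that favours granulocytes and also acts in T cell precursors. Irf8 and Klf4 favour monocytes, and Irf8 also serves dendritic and B cells. Myb keeps progenitors and thymocytes immature and dividing.

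The stretches upstream of 4 members are shown because Irf8 gave the clearest difference in progenitor marrow, Cebpa and Irf8 were called between the leukemias, and Cebpb and Klf4 moved most alike. They are the 250 bases before each gene's first listed start in the RefSeq promoter table (build GRCm38.p6), which matched 6 of the 9 members. Spi1, also called between the leukemias, had no entry there, and the Cebpa call was lost without most single leukemic arrays. Capitals mark matches, on either strand, to TTGCG (the C/EBP core), TGACG (a cAMP response element half-site), TTCNNNGAA (the GAS motif bound by STAT proteins) or GAGGAA (an ETS motif), none of which overlap here.
Irf8, chr8:120736108-120736357, plus strand: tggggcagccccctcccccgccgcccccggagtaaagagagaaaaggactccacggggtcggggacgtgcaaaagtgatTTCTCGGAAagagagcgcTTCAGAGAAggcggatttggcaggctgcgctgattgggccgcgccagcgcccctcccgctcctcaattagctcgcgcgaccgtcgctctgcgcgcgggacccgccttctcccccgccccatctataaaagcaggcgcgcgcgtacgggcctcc
Cebpa, chr7:35119043-35119292, plus strand: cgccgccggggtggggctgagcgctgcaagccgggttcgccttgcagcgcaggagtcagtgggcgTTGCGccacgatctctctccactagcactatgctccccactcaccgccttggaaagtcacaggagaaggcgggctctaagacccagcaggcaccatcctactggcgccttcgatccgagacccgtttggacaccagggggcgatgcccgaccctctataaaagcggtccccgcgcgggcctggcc
Cebpb, chr2:167688665-167688914, plus strand: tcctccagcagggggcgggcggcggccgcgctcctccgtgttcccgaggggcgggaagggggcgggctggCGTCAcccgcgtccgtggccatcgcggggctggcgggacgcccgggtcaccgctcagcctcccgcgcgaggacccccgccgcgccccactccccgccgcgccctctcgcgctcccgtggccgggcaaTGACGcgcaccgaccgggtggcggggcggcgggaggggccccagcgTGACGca
Klf4, chr4:55532476-55532725, minus strand: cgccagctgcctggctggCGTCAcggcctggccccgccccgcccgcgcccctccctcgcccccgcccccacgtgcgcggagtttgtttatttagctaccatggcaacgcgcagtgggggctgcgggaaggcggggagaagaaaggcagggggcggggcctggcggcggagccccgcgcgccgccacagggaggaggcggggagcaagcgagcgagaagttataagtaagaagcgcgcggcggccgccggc

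The Irf8 stretch holds 2 GAS matches, starting 171 and 153 bases before the start site, and such a match occurs in 7.02% of the 32851 promoters in the table. Cebpa holds 1 C/EBP core at 185 bases (14.5% of promoters). Cebpb holds 3 CRE half-sites at 180, 53 and 7 bases, and Klf4 holds 1 at 232 bases (17.8%). The ETS motif GAGGAA, present in 23.3% of promoters, is in none of these windows, and the shorter GGAA was not searched. The matches describe letters only, and binding was not measured.

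**Figure D1:**
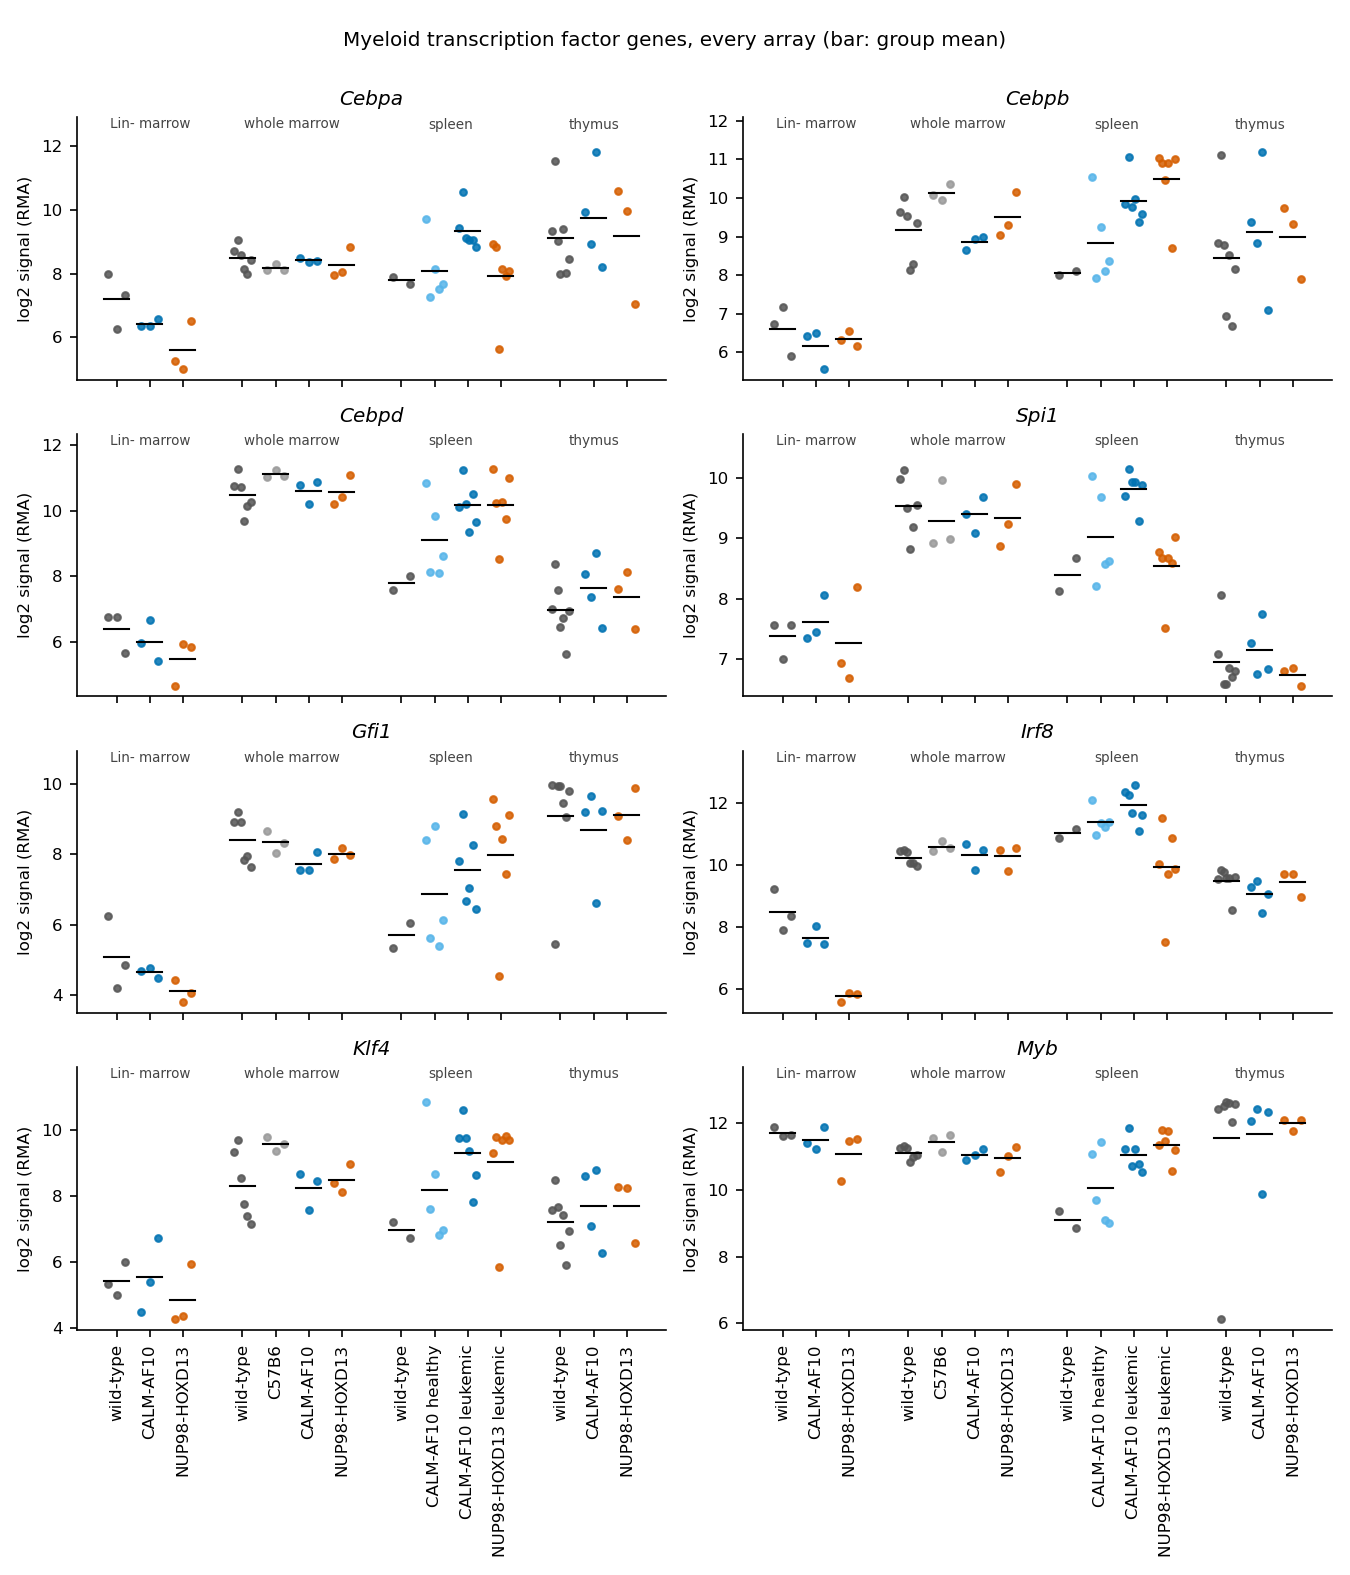
Log2 RMA signal (y axis) of the 8 measured members on every array, by tissue and genotype (x axis); each point is 1 array and each bar a group mean. Myb is high in lineage-negative marrow, where the other 7 genes are lower than in whole marrow, and Irf8 is lowest on the 3 NHD13 lineage-negative arrays, from 5.58 to 5.88.

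Lineage-negative and whole wild-type marrow were compared first, because they show where each factor lies in normal blood formation. 6 of the 8 members were lower in the lineage-negative fraction, by limma with Benjamini-Hochberg adjustment at 0.05, and none was higher; 26.3% of the 15310 genes tested were called in this comparison. The median member difference was -2.36 log2, against 0.05 over all genes. All 8 members had groups that did not overlap, which held for 28.9% of genes.

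Cebpd had the largest difference among the members. It read 6.77, 6.77 and 5.69 on the lineage-negative arrays and from 9.67 to 11.27, median 10.48, in whole marrow, so that the groups lay far apart, with a difference of -4.05 ± 0.53 (SE; adjusted p = 7.12e-08). Gfi1 fell by 3.32 ± 0.80 (adjusted p = 0.00129). Klf4 fell by 2.88 ± 0.73 (0.00205), a call lost when wild-type whole-marrow arrays 4 to 6 alone were used (-1.99, 0.0607); the other Klf4 probe set did not pass (-1.13 ± 0.60, 0.174), nor did the other, dim Cebpd probe set (-0.50 ± 0.25, 0.144). Gfi1 lay below the 40th percentile of its array on all CA10 and NHD13 lineage-negative arrays, so it was among the dim genes there. Cebpb changed by -2.56 ± 0.64 (0.00186), Spi1 by -2.15 ± 0.35 (4.95e-06) and Irf8 by -1.75 ± 0.41 (0.00104). Cebpa, at -1.29 ± 0.66 (0.15), did not pass.

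Myb, the progenitor factor, was the exception in direction. It read 11.91, 11.62 and 11.65 in the lineage-negative fraction and from 10.85 to 11.31, median 11.16, in whole marrow, a difference of 0.60 ± 0.72 that did not pass (adjusted p = 0.616). In a model of these marrow groups alone, Myb (adjusted p = 0.0284) and Cebpa (0.0117) passed; Myb was more variable in wild-type thymus (SD 2.41), whose arrays enter the wider model. Among genes fixed as Myb targets, 2 of 5 rose, Myc by 1.83 ± 0.32 and Kit by 1.64 ± 0.47, and none fell. The cytokine receptors read by these cells fell in 5 of 6 cases, led by Csf3r, the G-CSF receptor (-3.73 ± 0.49).

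Mature-cell genes checked the label of the fraction. The 10 late granule genes averaged 5.44 to 9.14 over the 9 lineage-negative arrays and 12.82 to 13.46 over the 15 whole-marrow arrays, and all 10 fell in the wild-type comparison. 8 of 10 monocyte genes fell, Cybb with a difference of -6.21 ± 0.54. In bulk samples such as these, fewer cells of a type and less RNA per cell cannot be told apart.

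The NHD13 transgene was compared with wild type in lineage-negative marrow of mice without leukemia. Irf8 was the 1 member called, and it fell; it was 1 of only 9 genes called among 15310 (0.0588%), all of them lower in NHD13. Irf8 read 5.58, 5.88 and 5.84 in NHD13, 7.48, 8.02 and 7.45 in CA10, and 9.22, 7.92 and 8.37 in wild type. Every NHD13 array lay below every array of the other 2 groups, while CA10 and wild type overlapped. The difference from wild type was -2.73 ± 0.35 (limma, adjusted p = 0.0361), and with the array number as a block the adjusted p was 0.0335.

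The call did not hold under every choice of probe set and arrays. The other Irf8 probe set read 6.58, 5.40 and 6.20 in NHD13, 6.35, 6.92 and 7.10 in CA10 and 7.70, 6.70 and 7.34 in wild type. NHD13 and wild type again did not overlap, but NHD13 and CA10 did, and the difference from wild type was smaller, a difference of -1.19 ± 0.39 that did not pass (adjusted p = 0.975). With the mean of both probe sets the difference was -1.96 and the adjusted p 0.16. Leaving out 1 array at a time kept the difference between -3.03 and -2.37, and the call held in 2 of 6 cases (adjusted p from 0.0168 to 0.213): it was lost without NHD13 array 1 or 2 or wild-type array 1 or 3. It was also lost under quantile normalization (adjusted p = 0.084), with each probe set as its own row (0.064), in a fit of the compared groups alone (0.283) and without the third array of each group (0.0535).

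**Figure D2:**
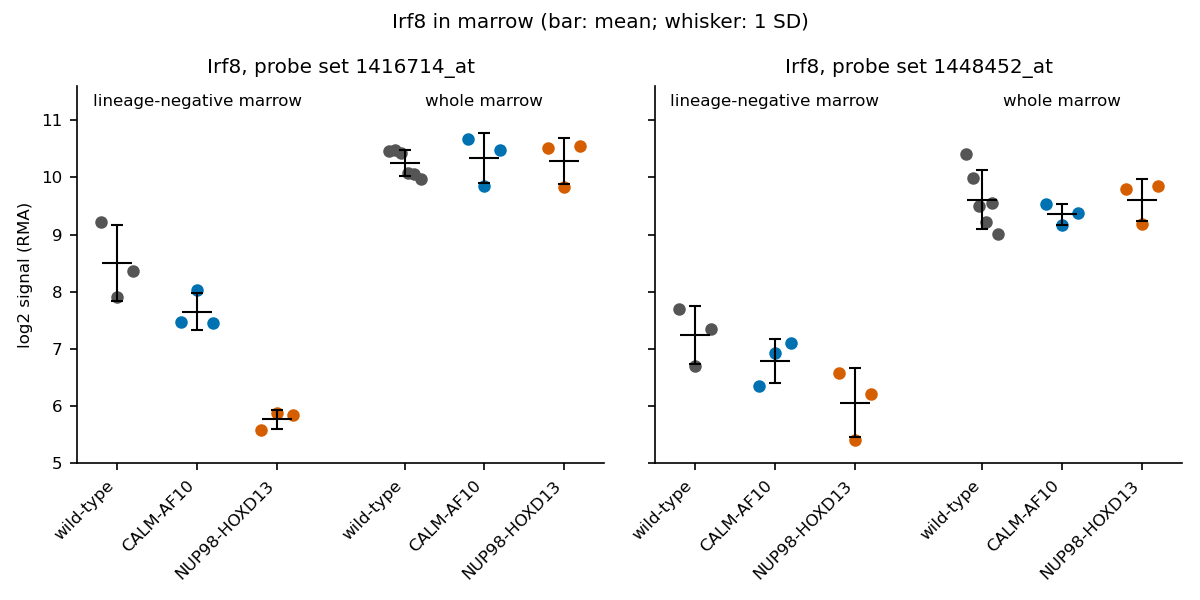
Log2 RMA signal (y axis) of Irf8 by its 2 probe sets in lineage-negative and whole marrow of each genotype (x axis); points are arrays, bars group means and whiskers 1 SD. The NHD13 lineage-negative arrays lie from 5.58 to 5.88 in the left panel and from 5.40 to 6.58 in the right one, and no genotype stands apart in whole marrow.

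The NHD13 effect on Irf8 differed between tissues. It was -2.73 in lineage-negative marrow, 0.04 ± 0.21 in whole marrow and -0.04 ± 0.29 in thymus (limma F test of the difference, F = 12.003, adjusted p = 0.0149). Of all genes, 131 passed that test (0.856%), and Irf8 was the 1 member of 8. The test was not passed with the mean of both probe sets (adjusted p = 0.128). The same test for CA10, over 4 tissues, called 0 members and 0 of all genes (0%), and 0 members had an unadjusted p under 0.05.

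The other 7 members did not pass between NHD13 and wild-type lineage-negative marrow. Cebpa was nearest, with 5.26, 5.00 and 6.52 in NHD13 against 7.98, 6.26 and 7.33 in wild type; the groups overlapped, and the difference was -1.60 ± 0.49 (adjusted p = 0.799, or 0.225 with the block). Myb read 10.27, 11.47 and 11.55 in NHD13, just below every wild-type array, at -0.63 ± 0.37 (0.946). Irf8 and Myb were the 2 of 8 members whose groups did not overlap, against 6.62% of all genes. For Myb this held by the brightest probe set alone. By the others NHD13 reached 10.58 and 8.85, and wild type began at 10.53 and 8.78.

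Other myeloid genes moved in the same arrays. 3 of 6 primary granule genes fell, among them Ctsg (-4.13 ± 0.47) and Mpo (-3.65 ± 0.41; adjusted p = 0.0218 for both). The list averaged 7.22 to 7.75 in NHD13 and 9.37 to 10.57 in wild type. The basophil protease gene Mcpt8 also fell (-5.69 ± 0.65), as did Cd34, a stem and progenitor surface gene (-2.85 ± 0.37). The list of erythroid markers averaged 12.41, 10.37 and 8.12 on the NHD13 arrays and 9.39, 10.06 and 9.0 in wild type, and the third NHD13 array had the highest Gapdh 3-prime minus 5-prime signal of these arrays, 2.95. With that Gapdh signal as a covariate Irf8 was -2.75 (adjusted p = 0.0159). The part of the erythroid cells in the Irf8 result was not tested.

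No member passed between CA10 and wild-type lineage-negative marrow: 0 of 8 and 0 of all genes (0%) were called by limma, and Irf8 alone had an unadjusted p under 0.05, at -0.85 ± 0.35. Between CA10 and NHD13 lineage-negative marrow 0 members and 0 of all genes (0%) were called, although 2 of 8 members had groups that did not overlap, against 4.92% of genes. For Irf8, CA10 was higher by 1.88 ± 0.35 (adjusted p = 0.435), and for Gfi1, CA10 read 4.49 to 4.78 and NHD13 3.79 to 4.43. Irf8 was again the 1 member with an unadjusted p under 0.05.

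Leukemic spleens were compared with wild-type spleen to see which factors accompany overt disease. In CA10, 3 of 8 members rose: Cebpd, Spi1 and Myb; 8.05% of genes were called. In NHD13, 3 of 8 rose: Cebpb, Cebpd and Myb; 31.4% of genes were called, so a count of 3 is close to the background there. The median member difference was 1.88 in CA10 and 2.15 in NHD13, against 0.03 and 0.04 over all genes. Both comparisons share the 2 wild-type arrays.

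Myb read 9.37 and 8.86 in wild-type spleen. It ran from 10.53 to 11.86, median 11.01, in CA10 leukemia and from 10.56 to 11.80, median 11.41, in NHD13 leukemia. No leukemic array of either kind reached down to the wild-type values. The rise was 1.95 ± 0.54 in CA10 (adjusted p = 0.0349) and 2.25 ± 0.54 in NHD13 (0.00442).

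Cebpd behaved alike. Wild-type spleens read 7.59 and 8.01, CA10 leukemias 9.36 to 11.22, median 10.15, and NHD13 leukemias 8.54 to 11.27, median 10.24, with rises of 2.37 ± 0.69 in each (adjusted p = 0.044 and 0.0152). Cebpb read 8.0 and 8.10 in wild type and 8.71 to 11.04, median 10.90, in NHD13, a rise of 2.46 ± 0.63 (0.00706). In CA10 it ran from 9.37 to 11.05, median 9.81, and the difference of 1.89 ± 0.63 did not pass (0.0714). With each probe set as its own row, the other Cebpb probe set passed in CA10 (2.57 ± 0.67, adjusted p = 0.03), and the other Cebpd probe set, dim on all arrays (3.90 to 6.11), did not (0.28 ± 0.25, 0.53). Apart from the tests, 7 of 8 members did not overlap with wild type in CA10 (31.8% of genes did not), all but Irf8, and 3 of 8 in NHD13 (40.9%).

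Spi1 rose in CA10, by 1.41 ± 0.42 (adjusted p = 0.0446), and was 0.14 ± 0.42 higher in NHD13 (0.821). Gfi1 and Klf4 had large differences that did not pass in either leukemia, 1.88 ± 1.12 and 2.34 ± 1.03 in CA10 and 2.30 ± 1.12 and 2.05 ± 1.03 in NHD13. The other Klf4 probe set passed in NHD13 (2.29 ± 0.80, adjusted p = 0.0365). Without NHD13 leukemic array 3, which stood apart, both passed in NHD13, at 2.99 (adjusted p = 0.0159) and 2.68 (0.0187). All 3 CA10 calls were lost under quantile normalization and without CA10 array 1, CA10 array 2 or either wild-type array; Myb alone was called without CA10 array 3 or 6, Spi1 was lost without array 4 and Cebpd without array 5. In NHD13, Myb alone was called without wild-type array 1, and no member without wild-type array 2.

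Of the differentiation lists, among primary granule genes 1 of 6 rose in CA10, Ctsg by 5.13 ± 1.30, and 5 of 6 in NHD13. Of the 10 late granule genes 0 were called in CA10, with a median difference of 2.04, and 2 rose in NHD13. Monocyte genes rose in 3 of 10 cases in CA10 and in 2 of 10 in NHD13, where 1 fell, and F13a1 was higher by 4.34 ± 1.09 in CA10 and 4.05 ± 1.09 in NHD13. B cell markers fell in 3 of 5 cases in CA10 and in 5 of 5 in NHD13. Spib, the B cell relative of Spi1, fell in both (-2.57 ± 0.69 and -5.25 ± 0.69). The B cell list averaged 10.86 and 11.27 in wild type, 6.15 to 9.28 in CA10 leukemia and 5.26 to 6.62 in NHD13 leukemia; its part in the member values was not tested.

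**Figure D3:**
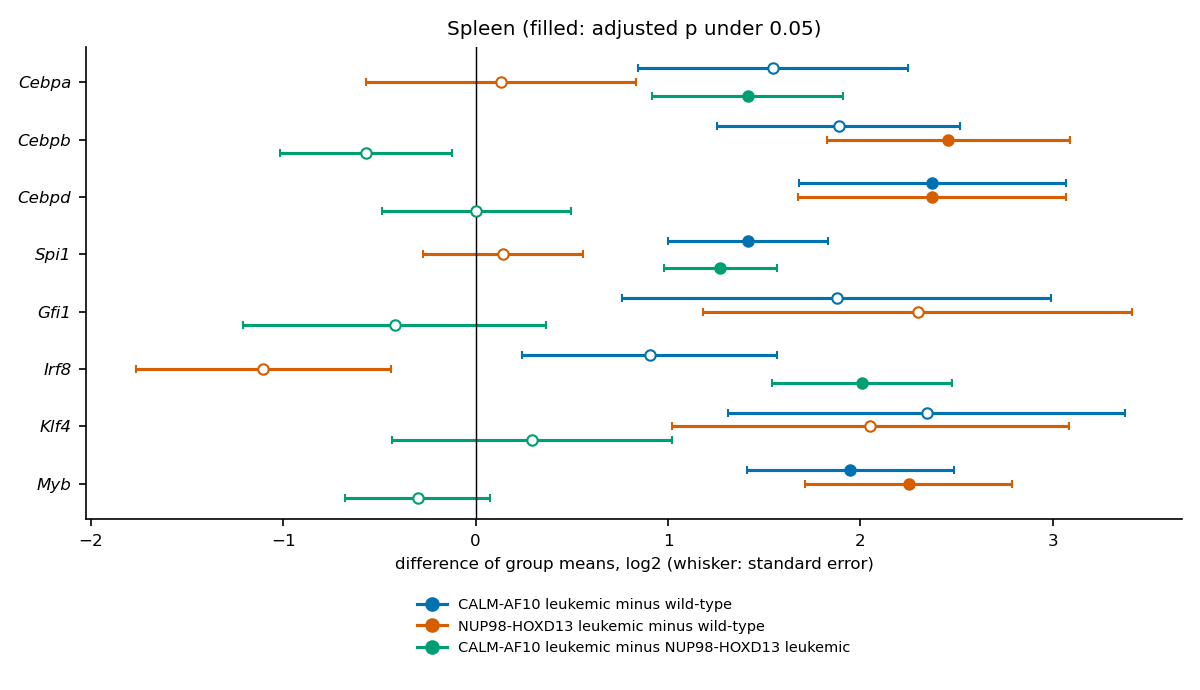
Difference of group means in log2 units (x axis) for each member (y axis) in 3 spleen comparisons; whiskers are standard errors, and filled points have an adjusted p under 0.05. Cebpa, Spi1 and Irf8 are filled where CA10 is set against NHD13, at 1.41, 1.27 and 2.01, and Cebpd lies at 2.37 for both leukemias against wild type.

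The 2 leukemias were then set against each other. 3 of 8 members were higher in CA10 and none in NHD13. In this comparison 24.7% of genes were called, so a count of 3 is not far from the background. The median member difference was 0.15. The 3 were Irf8, Spi1 and Cebpa. Irf8 and Spi1 were called whichever 1 of the 12 leukemic arrays was left out, and Cebpa in 2 of those 12 cases (without NHD13 array 1 or 2).

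Irf8 ran from 11.09 to 12.58, median 11.98, in CA10 and from 7.54 to 11.51, median 9.97, in NHD13, and 1 NHD13 array, number 2, fell within the CA10 range. The difference was 2.01 ± 0.47 (adjusted p = 0.00546), and by the other probe set 1.84 ± 0.45 (0.00629). Against wild type, at 10.89 and 11.17, neither leukemia passed: CA10 was 0.91 ± 0.66 higher and NHD13 1.10 ± 0.66 lower. The wild-type level thus lay between the 2 leukemia means.

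Spi1 ran from 9.29 to 10.15, median 9.90, in CA10 and from 7.52 to 9.02, median 8.67, in NHD13, without overlap. CA10 was higher by 1.27 ± 0.29 (adjusted p = 0.00501). Cebpa ran from 8.83 to 10.55, median 9.09, in CA10 and from 5.63 to 8.92, median 8.11, in NHD13, with 1 NHD13 array inside the CA10 range and array 2 at its edge (8.83), and differed by 1.41 ± 0.50 (0.0461). Without NHD13 array 3, Irf8 and Spi1 differed by 1.53 (0.00314) and 1.07 (0.00945), and Cebpa did not pass, at 0.96 (0.0825). The strain of the NHD13 mice is not given. When the C57B6 minus other wild-type marrow difference was subtracted, Irf8 passed at 2.35 (0.00366), but Spi1 (0.198) and Cebpa (0.546) did not, nor did any member between NHD13 leukemia and wild type. That marrow difference was -0.23 ± 0.30 for Spi1 and -0.30 ± 0.23 for Cebpa. It was 0.96 for Cebpb, 0.65 for Cebpd and 0.32 for Myb. Some of the other wild-type marrow arrays, unlike the C57B6 arrays, had a narrow spread of values, so strain and array set cannot be told apart in it. Against wild-type arrays 1 to 3 alone it was smaller for Cebpb (0.389), Cebpd (0.202) and Myb (0.168). For Spi1 (-0.575) and Cebpa (-0.601) it was larger in size. The subtraction used the fit of all arrays and the means of both marrow groups, which adds to the standard error. It assumes that the NHD13 mice were C57B6 and the CA10 and wild-type spleen mice were not, which no label states. The part of strain in the lost calls was not tested.

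Cebpb, Cebpd, Gfi1, Klf4 and Myb did not differ by the test between the leukemias. For Cebpd the difference was 0.00 ± 0.49, with a standard error too wide to show that the levels were alike. Of the 10 monocyte genes, 2 were higher in CA10, Ctss by 1.21 ± 0.29 and Cd68 by 0.99 ± 0.35, and of the 6 primary granule genes 0 differed. Among the cytokine receptors Csf2ra (1.86 ± 0.43) and Flt3 (2.00 ± 0.63) were higher in CA10. B cell markers (3 of 5), NK markers (2 of 4) and T cell markers (4 of 7) were also higher in CA10, and Irf4, the lymphoid relative of Irf8, by 2.29 ± 0.41. B cells express Irf8 and Spi1, and the part of these cells in the result was not tested.

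Array 3 of the NHD13 leukemias differed from the other 5. Its primary granule genes averaged 9.21 against 11.66 to 12.85, its late granule genes 8.22 against 11.55 to 13.10 and its monocyte genes 7.86 against 9.69 to 10.69. Cebpa (5.63), Cebpd (8.54), Gfi1 (4.54), Klf4 (5.86), Irf8 (7.54) and Spi1 (7.52) were each the lowest of the 6 NHD13 arrays. Myb, at 11.47, and Cebpb, at 10.46, lay within the range of the others.

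Leukemic CA10 spleens were compared with CA10 spleens from mice without clinical signs. No label pairs these arrays or follows a mouse over time. No member passed, 0 of 8 by limma, while 6.01% of genes were called; 4 members, Cebpa, Cebpb, Spi1 and Myb, had an unadjusted p under 0.05. The median member difference was 1.03, against 0.01 over all genes. Cebpa was higher in leukemia by 1.27 ± 0.52 (adjusted p = 0.162) and Myb by 1.00 ± 0.40 (0.147). Of the other Myb probe sets, 1 passed (1.70 ± 0.48, adjusted p = 0.0422) and 1 did not (1.33 ± 0.52, 0.133).

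The spread among spleens without clinical signs was wide. Gfi1 read 8.41 and 8.82 in arrays 1 and 3 and 5.63, 5.38 and 6.14 in arrays 2, 4 and 5. Myb read 11.09 and 11.43 in the same 2 arrays and 9.70, 9.09 and 9.01 in the others. Wild-type spleens read 5.33 and 6.06 for Gfi1, and leukemic CA10 spleens 6.45 to 9.14, so for Gfi1 arrays 1 and 3 lay inside the leukemic range and the other 3 below it. Primary granule genes averaged 12.30 and 12.17 in those 2 arrays, against 7.57 to 9.50 in the other 3.

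Without array 1 of the spleens lacking signs, Cebpa (1.68, adjusted p = 0.0416), Cebpb (1.52, 0.0323) and Spi1 (1.04, 0.0334) passed, and without array 3 Myb did (1.34, 0.0456). Array 1 also had the highest Gapdh 3-prime minus 5-prime signal of that group, 2.09, and with this signal as a covariate Spi1 alone passed (1.20, adjusted p = 0.0419). Between CA10 spleens without signs and wild-type spleens limma called 0 of 8 members and 0% of genes, and 0 members had an unadjusted p under 0.05.

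**Figure D4:**
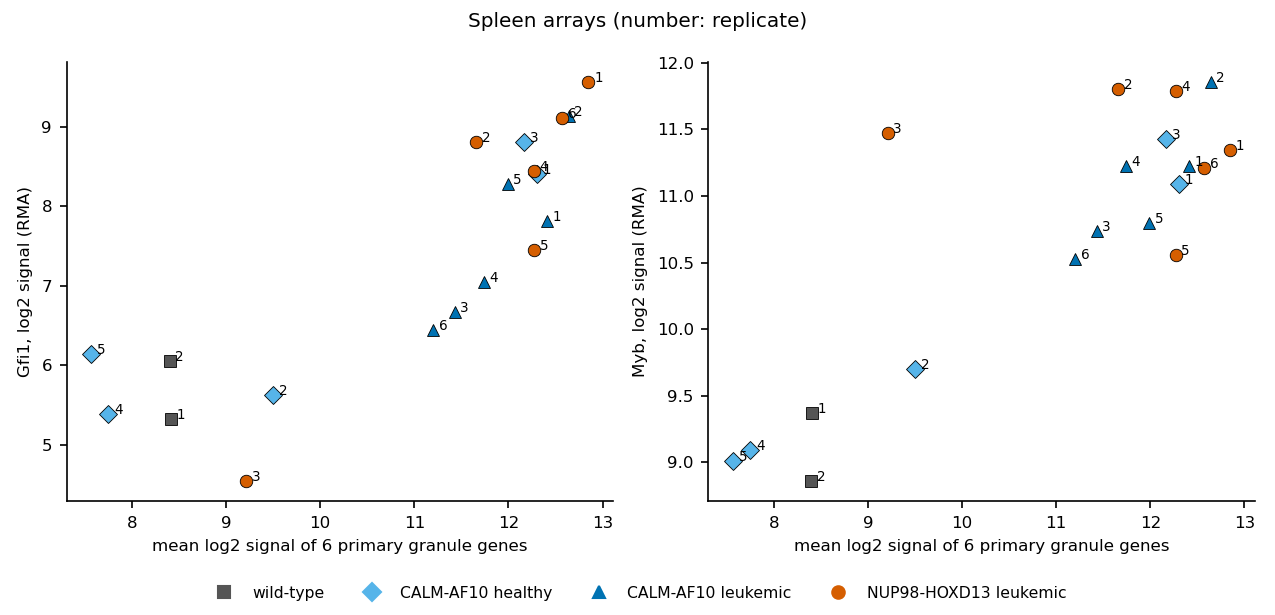
Gfi1 and Myb (y axes, log2 RMA signal) against the mean of 6 primary granule genes (x axis) on every spleen array; numbers are replicates and symbols groups. CA10 arrays 1 and 3 without clinical signs lie at 12.30 and 12.17 among the leukemic spleens, and NHD13 leukemic array 3 lies at 9.21 with Gfi1 at 4.54 and Myb at 11.47.

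Leukemic spleen was also set against the lineage-negative marrow of the same transgenic line, 2 tissues that differ in much besides leukemia. 7 of 8 members were higher in the CA10 leukemic spleens, with 33.7% of genes called, and 7 of 8 in the NHD13 leukemic spleens, with 51.9% called. Myb was the 1 not called in each, at -0.46 ± 0.72 and 0.26 ± 0.72. Its other probe sets gave -0.22 and -0.08 in CA10 and 1.04 and 2.11 in NHD13, where the last passed (2.11 ± 0.80, adjusted p = 0.0264). The dim Cebpd probe set passed in neither line (0.10 ± 0.25 and 0.24 ± 0.25). In CA10, Irf8 was higher by 4.29 ± 0.41 (adjusted p = 1.3e-11) and Cebpd by 4.14 ± 0.53; in NHD13, Cebpd was higher by 4.67 ± 0.53 and Irf8 by 4.16 ± 0.41 (3.26e-11). The groups did not overlap for 7 of 8 members in CA10 (35.9% of genes) and 4 of 8 in NHD13 (32.1%), where leukemic array 3 reached into the marrow range for Cebpa, Spi1 and Klf4.

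In these comparisons 10 of 10 late granule and 10 of 10 monocyte genes rose in each line, as did the receptor genes Csf1r, by 5.03 ± 0.40 in CA10 and 5.18 ± 0.40 in NHD13, and Csf2rb. Id2, an inhibitor of helix-loop-helix factors, rose by 4.92 ± 0.33 and 4.79 ± 0.33. Klf6, a relative of Klf4, rose by 3.57 ± 0.27 and 3.86 ± 0.27.

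Whole marrow showed no member called between transgenic and wild-type mice over all 6 wild-type arrays: 0 of 8 in CA10 (0% of genes), with Gfi1 alone at an unadjusted p under 0.05, and 0 of 8 in NHD13 (1.18%), with none. The C57B6 marrows also gave 0 of 8 against the other wild-type marrows (19.2%), with Cebpb, Cebpd and Klf4 at an unadjusted p under 0.05; Cebpb and Klf4 were called without wild-type array 1 or 2, and Cebpd without array 2. The other Klf4 probe set passed in that comparison (1.52 ± 0.38, adjusted p = 0.0118). These results depend on a split among the wild-type arrays. Wild-type arrays 4 to 6 and the 3 CA10 arrays were among 10 arrays with a narrow spread of values (75th percentile 6.90 to 7.15, against 7.26 to 7.72 on the other 47), and wild-type arrays 1 to 3, NHD13 and C57B6 were not.

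Within matched arrays, CA10 against wild-type arrays 4 to 6 again called 0 members, and 0.00653% of genes. NHD13 against wild-type arrays 1 to 3 called 1 member, with 1.98% of genes called. That member was Gfi1, which read 7.88, 8.18 and 8.0 in NHD13 and 8.93, 9.19 and 8.93 in wild type, a fall of 1.00 (adjusted p = 0.0176) with no overlap. C57B6 against wild-type arrays 1 to 3 likewise called Gfi1 alone, lower by 0.67 (0.0318), with 14% of genes called. Gfi1 read 7.83, 7.95 and 7.63 on wild-type arrays 4 to 6, below every one of wild-type arrays 1 to 3 and close to the NHD13 values.

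In thymus 0 of 8 members were called in CA10 (0% of genes) and 0 of 8 in NHD13 (0.764%), with 0 at an unadjusted p under 0.05 in each. In NHD13 thymus Gfi1 read 9.11, 8.41 and 9.88 and Myb 12.11, 11.78 and 12.12, and the wild-type medians were 9.81 and 12.53. Spi1, which T cell precursors silence, read 6.80, 6.86 and 6.56 in NHD13 thymus, with a median of 6.81 in wild type and 7.06 in CA10.

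Wild-type array 2 and CA10 array 3 stood apart. Myb read 6.13 and 9.88 on them, against 12.05 to 12.65 on the other wild-type and 12.07 to 12.44 on the other CA10 arrays, and Gfi1 read 5.45 and 6.61, against 9.05 to 9.96 and 9.22 to 9.66. Cebpa was high on both, at 11.54 and 11.82. T cell markers averaged 8.34 and 10.09 there, against 11.17 to 12.01 on the other wild-type, 11.20 to 11.80 on the other CA10 and 10.06 to 11.04 on the NHD13 arrays, so CA10 array 3 lay within the NHD13 range. Adipocyte markers, a list chosen after the values were seen, averaged 11.99 and 11.30, against 5.56 to 9.59 on the other wild-type, 7.68 to 9.89 on the other CA10 and 7.26 to 10.59 on the NHD13 arrays. Fat cells express Cebpa and Cebpb. Without these 2 arrays, an alternative added after seeing the data, 0 members were called in either comparison, and Myb differed by -0.19 in CA10 and -0.47 in NHD13, in place of 0.11 and 0.43. The part of fat or other tissue in these values was not tested.

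**Figure D5:**
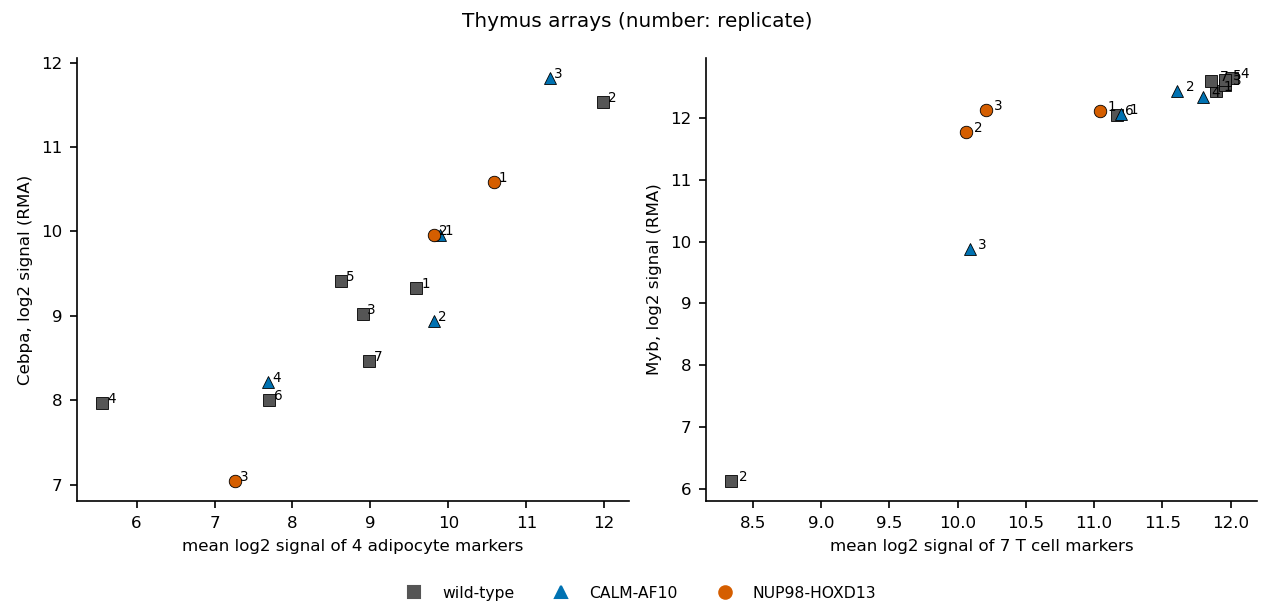
Left, Cebpa (y axis, log2 RMA signal) against the mean of 4 adipocyte markers (x axis); right, Myb against the mean of 7 T cell markers, on every thymus array, with replicate numbers. Wild-type array 2 and CA10 array 3 have the 2 highest adipocyte means, 11.99 and 11.30, and the 2 lowest Myb values, 6.13 and 9.88.

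Across the 14 group means the members did not form 1 pattern. Cebpb and Klf4 were most alike (Pearson r = 0.97), then Cebpd and Klf4 (0.92), Cebpa and Gfi1 (0.89) and Cebpd and Spi1 (0.87). Myb had coefficients from -0.42 with Irf8 to 0.30 with Gfi1. The points share tissues and controls, and these values describe the groups only.

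Among all tested genes, the 2 whose means were most like each member's included mature myeloid genes for some members. For Cebpd they were Fcgr3, a receptor for antibody on phagocytes (r = 0.989), and Anxa3 (0.987). For Irf8 they were BC028528 and Nckap1l, a regulator of the blood cell cytoskeleton (0.970 and 0.969). For Myb they were Msrb2 (0.942) and Stmn1, a microtubule regulator of dividing cells (0.931), and for Cebpb Rhoa and Id1 (0.975 and 0.973).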

How the data were processed

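RNA from mouse spleen, thymus and marrow was hybridised to Affymetrix arrays, per the labels. The deposited values are log2 signals, which the authors computed by RMA according to the submitters' processing notes; the RMA version, and any batch, is not given in the sources used here. Depth has no meaning for arrays, and their number limits the precision.

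Of 44943 probe sets, 64 controls, 931 naming several genes and those naming none were left out. For genes with several probe sets, the brightest on average was used. Genes above the 40th percentile of their array on at least 3 arrays were tested, 15310 in all. limma 3.58.1 in R 4.3.3 fitted group means per tissue, or over all arrays for F tests and comparisons across tissues, with Benjamini-Hochberg adjustment over all genes and a threshold of 0.05. The fits were tested on simulated data.

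The named genes were the members, up to 2 called genes of each list and comparison with the smallest adjusted p, and the 2 genes most like each member over group means. The members and lists were chosen with earlier results of these data known. In lineage-negative marrow, arrays of the same number deviated together (r from 0.20 to 0.76), so the block value stands beside those results. The third array of each of these groups was also among the 10 with a narrow spread of values. A pairing of arrays and a shared array set cannot be told apart there. Alternatives are given with the closing observations.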

Additional observations from a re-analysis of the deposited data

Results flagged for a closer look

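The 8 members were examined in the 6 groups of 4 to 10 arrays, 48 sets of values, for an array far from the rest of its group (Dixon's test at 95%). Chance would mark about 1 in 20, and 13 values were marked. They fell on few arrays.

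In thymus, wild-type array 2 was apart for Cebpa (11.54), Spi1 (8.05), Gfi1 (5.45) and Myb (6.13), and CA10 array 3 for Gfi1 (6.61) and Myb (9.88). Wild-type array 6 was apart for Irf8, at 8.55 against 9.54 to 9.83 on the others. That array was among the 10 with a narrow spread of values (75th percentile 7.03). NHD13 leukemic spleen 3 was apart for Cebpa (5.63), Spi1 (7.52) and Klf4 (5.86). NHD13 leukemic spleen 5 was apart for Cebpb, at 8.71 against 10.46 to 11.04. CA10 leukemic spleen 2 was apart for Cebpa, at 10.55 against 8.83 to 9.43, and Cebpb, at 11.05 against 9.37 to 9.98.

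The effect of NHD13 on Irf8 differed between lineage-negative marrow, whole marrow and thymus, with a limma F of 12.003 (adjusted p = 0.0149).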

How the results depend on the processing

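Over the 16 comparisons the 8 members gave 128 differences, 30 of them called. Of 2496 values under the alternatives, 2396 kept their side of the threshold, 60 lost a call and 39 gained one. 1 value called under an alternative had the opposite sign: Gfi1 in C57B6 against other wild-type marrow, at 0.55 against wild-type arrays 4 to 6 in place of -0.06. A further 113 values, not called in either setting, changed sign.

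Counts of members called moved as follows. For CA10 leukemic against wild-type spleen the count of 3 became 1 with no filter on low values, 0 under quantile normalization, 6 with only the groups compared and 5 with the Gapdh 3-prime minus 5-prime signal as a covariate; that covariate gave 1 in place of 0 against CA10 spleens without signs. With the C57B6 difference subtracted, NHD13 leukemic against wild-type spleen gave 0 in place of 3 and CA10 against NHD13 leukemia 1 in place of 3. Counts over all genes under these spleen settings are not given here, so the member counts are not read as results about the members. For NHD13 against wild-type lineage-negative marrow the count of 1 became 0 with the mean of all probe sets, with every probe set tested, under quantile normalization, with only the groups compared and without the third arrays, and the test between tissues gave 0 with the mean of all probe sets. In whole marrow, against wild-type arrays 1 to 3, CA10 gave 3 members, NHD13 1 and C57B6 1 in place of 0. Of all genes, CA10 then had 4090 called up and 4472 down, NHD13 66 and 237, and C57B6 1272 and 870. Against arrays 4 to 6, NHD13 gave 2 members and C57B6 6. Of all genes, NHD13 then had 4394 called up and 3902 down, and C57B6 4993 and 4207. CA10 against arrays 1 to 3, and NHD13 and C57B6 against arrays 4 to 6, set arrays with a narrow spread of values against others. C57B6 gave 1 with the mean of all probe sets, where 1790 of all genes were called up and 783 down. The cause of these changes was not tested.

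With 1 array left out, the count ran from 0 to 3 for CA10 leukemic against healthy spleen, from 0 to 2 for CA10 leukemic against wild type, from 0 to 5 for NHD13 leukemic against wild type, from 2 to 3 between the leukemias, from 0 to 1 for NHD13 lineage-negative marrow and from 0 to 3 for C57B6 marrow; other counts did not move. Over all genes the count ran from 127 to 1413 for CA10 leukemic against healthy spleen and from 2994 to 3892 between the leukemias. It ran from 0 to 31 for NHD13 lineage-negative marrow and from 1534 to 4271 for C57B6 marrow. For comparisons with wild-type spleen, where some fits left 1 wild-type array, no count over all genes is given. Where a group was left with 1 array, it was assumed to vary like the others.

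With the array number as a block, no member call changed in lineage-negative marrow, where arrays of the same number deviated together. The third arrays there also shared a narrow spread of values, so pairing was not shown. Elsewhere the arrays share only a number, and the block gave 3 members for CA10 and 1 for NHD13 whole marrow in place of 0. Of all genes, the block then called 3977 up and 4254 down in CA10 and 57 up and 176 down in NHD13. In whole marrow only the other wild-type group had array numbers above 3, so the block took those arrays out of the comparison. The member differences equalled those against wild-type arrays 1 to 3, such as -1.291 in CA10 and -0.998 in NHD13 for Gfi1. The block was thus no separate check there, and for CA10 it again set arrays with a narrow spread of values against others. The number of arrays, 2 for wild-type spleen, limits the precision.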
